A study of Mus musculus with 40 samples.

Results

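The 10 immediate early genes Fos, Fosb, Jun, Junb, Atf3, Egr1, Nr4a1, Dusp1, Btg2 and Ier2 were followed across choroid and retina of laser-treated mice. They were chosen by name, as the rows of the deposited table whose Ensembl identifiers carry these symbols. All 10 were found among the 54307 genes of the table, and all 10 passed the filter on low values in both tissues, a mean normalized count of at least 1. A normalized count is an estimated number of RNA fragments per gene after division by a factor for the size of each library. Levels were compared between libraries of the same gene only, since these counts are not per length.

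Choroidal neovascularization was induced with 6 laser burns per eye, and tissue was taken 3 days later. Control mice were Tgfbr2 fl/fl without Cre, and Tgfbr2ΔEC mice carried in addition Cdh5-CreERT2, a tamoxifen-dependent recombinase driven by an endothelial promoter. Both genotypes received tamoxifen eye drops for 5 days at 6 to 7 weeks of age. From the first tamoxifen application on, one set of each genotype was fed PLX5622, an inhibitor of the colony stimulating factor 1 receptor that depletes mononuclear phagocytes (+PLX), and the other set received control food (-PLX). Each of the 4 groups held 5 mice, and choroid and retina of the same 20 mice gave 40 libraries of poly-A RNA. Mice were littermates of both sexes, all libraries came from lasered eyes, and only the central piece of the choroid with the lesions was sequenced.

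Immediate early genes are transcribed within minutes of a stimulus, such as a growth factor, cell stress or neuronal activity, without need for newly made protein. Many encode transcription factors that carry the stimulus on to later genes, and others encode feedback inhibitors of the signalling pathways that induced them. Their messenger RNAs are typically short-lived.

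In these libraries normalized counts summed to about 24718500 to 25956200 in choroid and 22256900 to 24507300 in retina. Libraries of the same tissue and group correlated at 0.948 to 0.981 over genes. Neural retina markers stood at a summed level of 2429 to 130392 in choroid against 981918 to 1463830 in retina, and all 10 of them were measured in both. Mononuclear phagocyte markers fell with PLX in both tissues, 15 of 16 in choroid and 16 of 16 in retina. Tgfbr2 itself, the targeted gene, was at 10503 ± 425 in control -PLX choroid and 10176 ± 1077 in Tgfbr2ΔEC -PLX choroid (mean ± SD, n = 5 mice), with the same pair at 213 ± 55.4 and 178 ± 73.8 in retina. This row sums the whole gene over every cell of the piece, and the genotype difference without PLX was -0.05 in choroid (SE 0.09, adjusted p = 0.925, limma) and -0.32 in retina (SE 0.27, adjusted p = 0.985, limma), so the row could not serve as a check of the genotype labels. The methods describe a separate check of the deletion by PCR and qPCR, which was not analysed here. Retina of mouse 4, a control -PLX animal, was the lowest of its group for all 10 genes.

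The first question was where in the eye these genes were high. Of the 10 genes, 6 were higher in choroid, 3 were higher in retina and 1 did not pass the test (limma on log2 of the normalized count plus 1, Benjamini-Hochberg adjusted over all 24317 genes tested, called at an adjusted p of 0.05 or less). The median of the 10 log2 differences was 0.79, against -0.01 over all genes tested. Over all genes, 40.8% were called higher in choroid and 41.1% lower, so most genes of the table differed between tissues, and the size and direction of each difference carry more than the count.

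Fos, Fosb, Jun, Junb and Atf3 encode bZIP proteins, and the first 4 are subunits of the dimeric transcription factor AP-1. Jun (chromosome 4, 94937271 to 94940459, minus strand; all positions are on GRCm39) was at 1916 ± 285 in choroid and 1043 ± 172 in retina (mean ± SD, n = 20 mice). Its choroid libraries ran from 1492 to 2513 and its retina libraries from 786 to 1356, so the tissues did not overlap. The share of all genes without such overlap was not counted, here or for Btg2 below. The fitted log2 difference of Jun was 0.88 (SE 0.07, limma adjusted p = 1.09e-14), a 1.84-fold higher level in choroid. Junb (chromosome 8, 85701113 to 85705359, minus strand) was higher in choroid in 18 of 20 mice, at 1086 ± 216 against 615 ± 249, a log2 difference of 0.90 (SE 0.13, limma adjusted p = 1.14e-07). Prdx2 lies across Junb on the other strand at a mean of 3423 over the 40 libraries. The libraries were stranded, but the strand setting of the counting was not given in the sources used here.

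Atf3 (chromosome 1, 190902493 to 190950241, minus strand), a stress-induced member of the family that can repress transcription, showed the largest rise in choroid among the 10. It was at 539.7 ± 156 in choroid and 200.0 ± 78.3 in retina, a log2 difference of 1.46 (SE 0.14, limma adjusted p = 2.58e-12), and was higher in choroid in 20 of 20 mice. Fos (chromosome 12, 85520658 to 85524047, plus strand) went the other way. It was at 375 ± 109.5 in choroid and 569 ± 169 in retina, a log2 difference of -0.59 (SE 0.13, limma adjusted p = 6.02e-05), with the higher level in retina in 16 of 20 mice. Fosb (chromosome 7, 19036621 to 19043976, minus strand) did not pass the test. Its values ran from 49.3 to 155 in choroid and from 60 to 221 in retina, and the log2 difference was -0.21 (95% interval -0.49 to 0.08, limma adjusted p = 0.169). Without mouse 4 this difference was -0.29 and passed (limma adjusted p = 0.0472), which made 10 of 10 genes called.

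Egr1 (chromosome 18, 34992876 to 34998049, plus strand) encodes a zinc finger transcription factor and Nr4a1 (chromosome 15, 101151980 to 101172681, plus strand) an orphan nuclear receptor. Egr1 was at 1361 ± 215 in choroid and 886 ± 951 in retina, and the SD in retina exceeded the mean. It was higher in choroid in 17 of 20 mice, by 0.95 on the log2 scale (SE 0.19, limma adjusted p = 1.77e-05). Nr4a1 was lower in choroid, at 684 ± 185 against 890.1 ± 262, a log2 difference of -0.37 (SE 0.13, limma adjusted p = 0.0101). The 2 tissues overlapped widely for Nr4a1, and 14 of 20 mice had the higher value in retina.

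Dusp1 (chromosome 17, 26724564 to 26781102, minus strand) encodes a phosphatase that switches off mitogen-activated protein kinases. It was at 1097 ± 291 in choroid and 439 ± 113 in retina, a log2 difference of 1.32 (SE 0.12, limma adjusted p = 4.71e-13), and was higher in choroid in 20 of 20 mice. Ergic1, at a mean of 2892, lies across Dusp1 on the other strand. Btg2 (chromosome 1, 134002908 to 134015033, minus strand), an antiproliferative partner of the messenger RNA deadenylation machinery, showed the largest difference of the 10 and in favour of retina. It was at 707 ± 105 in choroid and 2232 ± 292 in retina, 3.16-fold higher in retina (log2 difference -1.66, SE 0.06, limma adjusted p = 3.57e-25), and the highest choroid library lay below the lowest retina library. Ier2 (chromosome 8, 85387960 to 85389483, minus strand), a nuclear protein, was at 554 ± 90.9 in choroid and 348 ± 106 in retina, a log2 difference of 0.71 (SE 0.10, limma adjusted p = 4.89e-08).

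With the mouse entered as a replicate block, since both tissues came from the same animals, the same 9 of 10 genes were called. When libraries were scaled to the same total or the same upper quartile, the median of all genes shifted to -0.12 and -0.14 on the log2 scale, the 10 directions held, and Fosb was also called (-0.33 and -0.35).

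**Figure D1:**
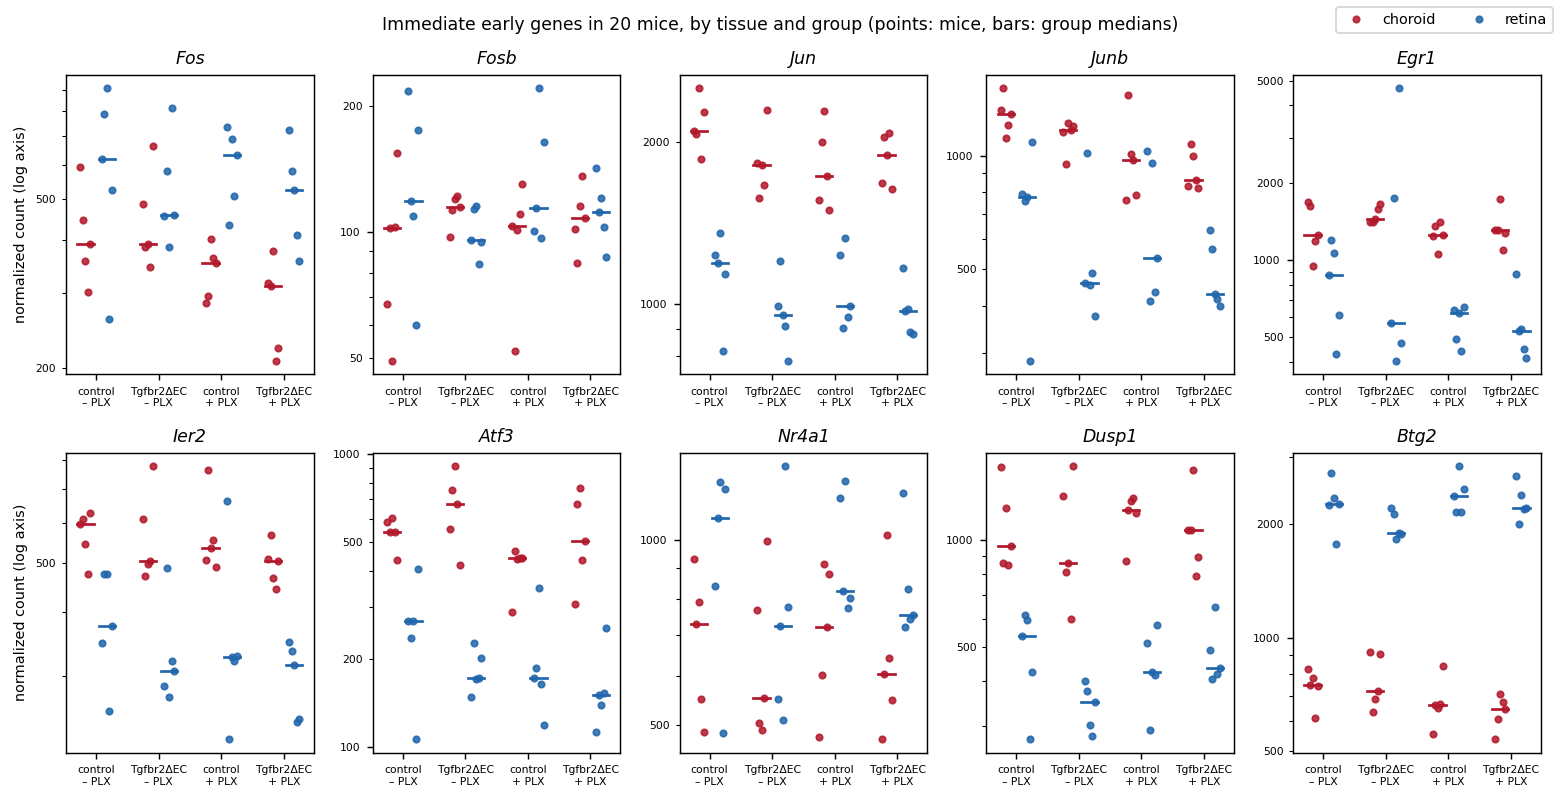
Normalized counts (log axis) of the 10 genes in choroid (red) and retina (blue) by group; each point is 1 mouse and each bar the median of 5 mice. Jun and Btg2 separate the tissues without overlap, in opposite directions, and Egr1 in Tgfbr2ΔEC -PLX retina holds the value farthest from its group, 4673. The share of all genes without overlap was not counted.

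Among 50 other immediate early genes taken as a comparison list, 49 were called between tissues, 41 higher in choroid and 8 lower, with a median log2 difference of 1.47. The largest were Ccn1 and Ccn2, matricellular genes of connective tissue and vessels, at 5.69 and 5.44, and Egr2, a zinc finger factor, at 5.10. The lowest in choroid were Egr4 and Npas4, at -3.73 and -2.36. In whole tissue, a different share of cells of a type and a different level of RNA per cell cannot be told apart.

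The second question was whether PLX changed these genes. In choroid, 1 of 10 fell with PLX over both genotypes, Junb, and none rose, against 7.13% of all 23619 genes called. In retina, 0 of 10 were called, against 1.09% of 23243 genes, and none of the 10 had an unadjusted p under 0.05. The median log2 difference of the 10 was -0.12 in choroid and -0.02 in retina, against 0.00 over all genes in each tissue. Without mouse 4 the retina median was -0.12, and 8 of the 10 genes were lower with PLX in place of 6.

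Junb in choroid was at 1325, 1509.5, 1115, 1207 and 1289.9 in the 5 control -PLX mice and at 762, 1450.2, 1011, 973 and 789 in control +PLX. In Tgfbr2ΔEC -PLX it was at 1156, 953, 1218, 1169.5 and 1201, and in Tgfbr2ΔEC +PLX at 833, 1075, 996, 862 and 820.2. In both genotypes most PLX-fed mice lay below the mice on control food, but mouse 12, a control +PLX animal, was above 4 of the 5 control -PLX mice, so the groups overlapped. The fitted difference over both genotypes was -0.36 on the log2 scale (SE 0.10, limma adjusted p = 0.0303), a 1.28-fold lower level. The exact permutation test (two-sided, with smallest attainable value 0.00794 for 5 against 5) gave p = 0.0635 within controls (difference -0.40) and p = 0.0238 within Tgfbr2ΔEC (difference -0.32). Such tests were run for each gene in 2 tissues and 4 contrasts, and 5 of the 80 had a p under 0.05, where 0.05 of 80 is 4. The call was lost when any of mice 1, 2, 6, 8, 9, 11, 16, 19 or 20 was left out (limma adjusted p up to 0.0609), and after adjustment for the level of neural retina markers (limma adjusted p = 0.0773), while the difference stayed between -0.43 and -0.32 over the mice left out. Without mouse 12 the limma adjusted p was 0.000986.

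Fos in choroid showed a larger difference that just missed the threshold. Its values were 592, 446, 357, 302 and 392 in control -PLX and 284, 295, 402, 362 and 353 in control +PLX. They were 485, 384, 390.3, 346 and 663 in Tgfbr2ΔEC -PLX and 318, 312, 376, 209 and 223 in Tgfbr2ΔEC +PLX. The pair of lowest values, 209 and 223, belonged to Tgfbr2ΔEC +PLX mice, and each pair of groups still overlapped. The difference was -0.46 over both genotypes (SE 0.14, limma adjusted p = 0.0539), and it was -0.27 within controls (exact permutation p = 0.183) and -0.65 within Tgfbr2ΔEC (exact permutation p = 0.0159), both two-sided. The control difference was -0.14 without mouse 1, and the Tgfbr2ΔEC difference stayed between -0.76 and -0.50 with any 1 mouse left out. The interaction of genotype and PLX was not called for Fos in choroid (-0.38, 95% interval -0.97 to 0.22, and -0.23 without mouse 10). The Fos difference over both genotypes passed when mouse 4, 9, 13 or 18 was left out (limma adjusted p down to 0.0301) or when genes under a mean of 10 were not tested (limma adjusted p = 0.0442).

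Atf3 in choroid was at 589, 542, 604, 543 and 437 in control -PLX and at 289, 466, 437, 443 and 440.3 in control +PLX. Within controls, the difference was -0.40 (exact permutation p = 0.0397, two-sided), with mouse 11 far below the other 4 PLX-fed controls, and within Tgfbr2ΔEC it was -0.32 (exact permutation p = 0.333). The control p was 0.0714 when any of mice 1 to 4 was left out, and the Tgfbr2ΔEC difference was -0.14 without mouse 16. Over both genotypes it was -0.36 (SE 0.16, limma adjusted p = 0.204), and Tgfbr2ΔEC +PLX mice ranged from 309 to 768. Btg2 differed by -0.21 (SE 0.09, limma adjusted p = 0.193). The other 6 genes lay between -0.12 and 0.11 in choroid and none had an unadjusted p under 0.05.

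Mononuclear phagocyte markers fell with PLX in the same libraries. Their summed level in choroid was 52043 to 61809 in the -PLX groups and 13333 to 20658 in the +PLX groups, and none of the 16 markers was at 0 in any group. In retina the sum was 2379 to 5809 without PLX and 413 to 594 with PLX, with Adgre1 at 0 in both +PLX groups and Mrc1 at 0 in control +PLX. In choroid 4 of 8 endothelial markers and 2 of 7 mural cell markers were also called, higher with PLX. The 10 neural retina markers had lower fitted levels with PLX in choroid, from -1.94 to -1.03 with a median of -1.12, and 0 of 10 were called (limma). Their mean log2 level (± SD, n = 5 mice) was 9.08 ± 1.25 without PLX and 9.14 ± 2.15 with PLX in controls. It was 11.64 ± 0.71 and 9.17 ± 0.74 in Tgfbr2ΔEC, so the lower pooled level came from Tgfbr2ΔEC. With their score in the fit the Junb difference was -0.36 and its call was lost, as given above. The part of any of these shifts in the Junb result was not tested.

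In retina, the largest fitted difference with PLX was that of Egr1, -0.66 on the log2 scale (SE 0.34, 95% interval -1.36 to 0.04, limma adjusted p = 0.832). Egr1 was at 877, 1196, 1064, 431 and 612 in control -PLX and at 642, 493, 623, 441 and 654 in control +PLX. It was at 570.3, 1748, 406, 4673 and 474 in Tgfbr2ΔEC -PLX and at 882, 530.4, 537, 452 and 417 in Tgfbr2ΔEC +PLX. Mouse 9 and mouse 7 of Tgfbr2ΔEC -PLX were the highest of all 20 retinae, and the other 3 of that group lay between 406 and 570.3. Without mouse 9 the difference was -0.38.

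In the PLX comparisons, the share of all genes whose groups did not overlap was not counted. Among the 10 genes, only Dusp1 in retina had no overlap, within Tgfbr2ΔEC. It was at 400.5, 377, 302, 282 and 349.7 without PLX and at 489, 406, 647, 420.2 and 437 with PLX, a difference of 0.48 (exact permutation p = 0.00794, two-sided, the smallest that 5 against 5 can give, before any adjustment for the 80 such tests of single genes). The difference within Tgfbr2ΔEC stayed between 0.36 and 0.54 with any 1 mouse left out. In controls the difference was -0.12 (exact permutation p = 0.619), which was -0.31 without mouse 4 (exact permutation p = 0.191), -0.22 without mouse 15, -0.02 without mouse 2 and 0.02 without mouse 12. The control values were 536, 615, 596, 276 and 425 without PLX and 511, 291, 425, 417 and 578 with PLX, and overlapped fully. Over both genotypes the difference was 0.18 (SE 0.15, limma adjusted p = 0.9997), and the interaction of genotype and PLX was 0.60 for Dusp1 (95% interval -0.02 to 1.21) and was not called, nor was it without mouse 4, at 0.79. Btg2 within Tgfbr2ΔEC retina differed by 0.20 (exact permutation p = 0.0476, two-sided) and within controls by 0.09 (exact permutation p = 0.492). The first p was above 0.05 when any of mice 8, 9, 10, 16, 18, 19 or 20 was left out (up to 0.103), and the control difference was 0.00 without mouse 4. In Tgfbr2ΔEC it ranged from 1827 to 2198 without PLX and 1992 to 2668 with PLX.

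The PLX effects of the 2 tissues were compared directly. For 0 of 10 genes did the effect differ between tissues (limma), against 1.37% of all 24317 genes, and 1 of the 10 had an unadjusted p under 0.05. That gene was Btg2, whose PLX difference was -0.21 in choroid and 0.15 in retina, apart by -0.35 (SE 0.12, limma adjusted p = 0.175). The PLX difference of Fos was -0.46 in choroid and 0.00 in retina, apart by -0.46 (95% interval -0.97 to 0.05).

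**Figure D2:**
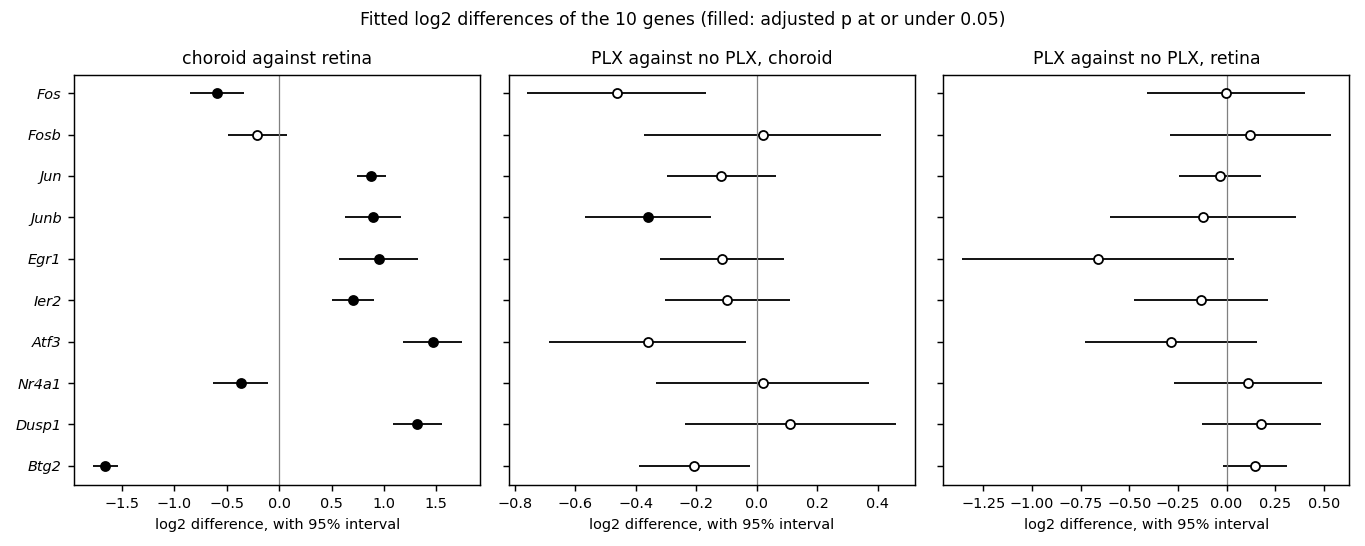
Fitted log2 differences of the 10 genes with 95% intervals (limma), for choroid against retina, and for PLX against control food in choroid and in retina; filled points have an adjusted p of 0.05 or less. Tissue differences reach -1.66 and 1.46, and of the PLX differences only that of Junb in choroid is filled.

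Of the 50 other immediate early genes, 5 were called for PLX in choroid, in both directions, which is 10% beside 7.13% of all genes. Per1, a clock gene, rose by 0.82, Ccn2 by 0.63 and Klf4, a vascular transcription factor, by 0.34. Plk3, a stress kinase, fell by 0.51 and Zfp36l2, which destabilises AU-rich messenger RNAs, fell by 0.19. None of the 50 was called in retina, where 8 had an unadjusted p under 0.05.

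The third question was whether loss of endothelial Tgfbr2 changed these genes. In choroid, 0 of 10 were called without PLX and 0 of 10 with PLX (limma), with none at an unadjusted p under 0.05, against 0.00423% of all genes, that is 1 gene, in either case. In retina, 0 of 10 were called in either diet, against 0% of all genes, with 1 of 10 at an unadjusted p under 0.05. That gene was Dusp1 without PLX, at -0.47 on the log2 scale (SE 0.21, limma adjusted p = 0.985), from the values given above, and at -0.66 without mouse 4 (limma adjusted p = 0.827). The interaction of genotype and PLX gave 0 of 10 in choroid and in retina, against 0% of all genes in each, with none of the 10 at an unadjusted p under 0.05.

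The 95% intervals give the genotype differences that groups of 5 mice left possible. In choroid without PLX, that of Jun ran from -0.50 to 0.01 and that of Fosb from -0.20 to 0.90. In retina without PLX, that of Junb ran from -1.06 to 0.30 and that of Egr1 from -0.67 to 1.31. In retina without PLX, 9 of the 10 genes had a lower fitted level in Tgfbr2ΔEC, with a median of -0.27 against -0.01 over all genes. These values rested in part on single mice. Without mouse 4 the median was -0.49, with Junb moving from -0.38 to -0.69, Atf3 from -0.38 to -0.66, Nr4a1 from -0.34 to -0.57 and Fos from -0.13 to -0.41, and none was called (limma adjusted p at least 0.827). Egr1, the exception at 0.32, was at -0.24 without mouse 9 and at 0.11 without mouse 7, and Junb was at -0.62 without mouse 7. In retina with PLX 9 of 10 were also lower, with a median of -0.20, which was -0.06 without mouse 13 and -0.09 without mouse 11. None of these differences was called, and with PLX those of Egr1, Nr4a1 and Btg2 turned to 0.29, 0.01 and 0.01 once the sex score was a covariate. The sexes were uneven between the groups. Y-linked genes lay above Xist, as in males, in 3 control +PLX mice against 1 Tgfbr2ΔEC +PLX mouse. Without PLX this held for 3 control mice against 2 Tgfbr2ΔEC mice. The 10 immediate early genes vary together in retina, as given below, so the 9 are not separate observations. In choroid, neural retina markers were higher in Tgfbr2ΔEC -PLX, with a summed level of 45199 to 130392 against 2774 to 25943 in control -PLX, although 0 of 10 of these markers passed the test.

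The spread between mice was the next measure, as the SD of log2 values around the group means (16 degrees of freedom per tissue). In choroid it ran from 0.19 for Btg2 to 0.43 for Fosb, with a median of 0.28. In retina it ran from 0.17 for Btg2 to 0.85 for Egr1, with a median of 0.46. Genes whose means fell in the same range had a median SD of 0.24 in choroid and 0.26 in retina. In retina only 1.53% of genes of that range were as widely spread as Egr1, 5.26% as Junb and 7.48% as Atf3, while 81.6% were as wide as Btg2. Without mouse 4 the retina SD of Junb was 0.47 in place of 0.57, and that of Atf3 was 0.415 in place of 0.513. The shares were not recomputed without that mouse.

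For 8 of 10 genes the spread was wider in retina than in choroid, the exceptions being Dusp1 and Btg2, and over all genes 58.9% were wider in retina. The SD of Egr1 was 0.23 in choroid and 0.85 in retina, and that of Junb was 0.23 and 0.57. The count depended on mouse 4: without it, 5 of 10 were wider in retina and the median SD there was 0.38. Without mouse 9 the SD of Egr1 in retina was 0.59, and without mice 7 and 9 it was 0.43.

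Mouse 4 was the lowest of the 5 control -PLX retinae for all 10 genes. Its Fos count was 261 against 522 to 907 in the other 4 mice, its Junb count 286 against 761 to 1086, and its Atf3 count 106 against 236 to 404. Over the 13825 genes with a mean of at least 50 in retina, the same library was the lowest of its group for 22.4% and the highest for 25.1%. Other retina libraries stood further apart over all genes, mouse 11 (lowest for 37.7%, highest for 40%) and mouse 7 (lowest for 34%, highest for 35.9%) above all. In choroid the same mouse was the lowest of its group for 5 of the 10 genes and the highest for none. The estimated size of its retina library, 20848000 reads, was the smallest of the retina libraries.

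**Figure D3:**
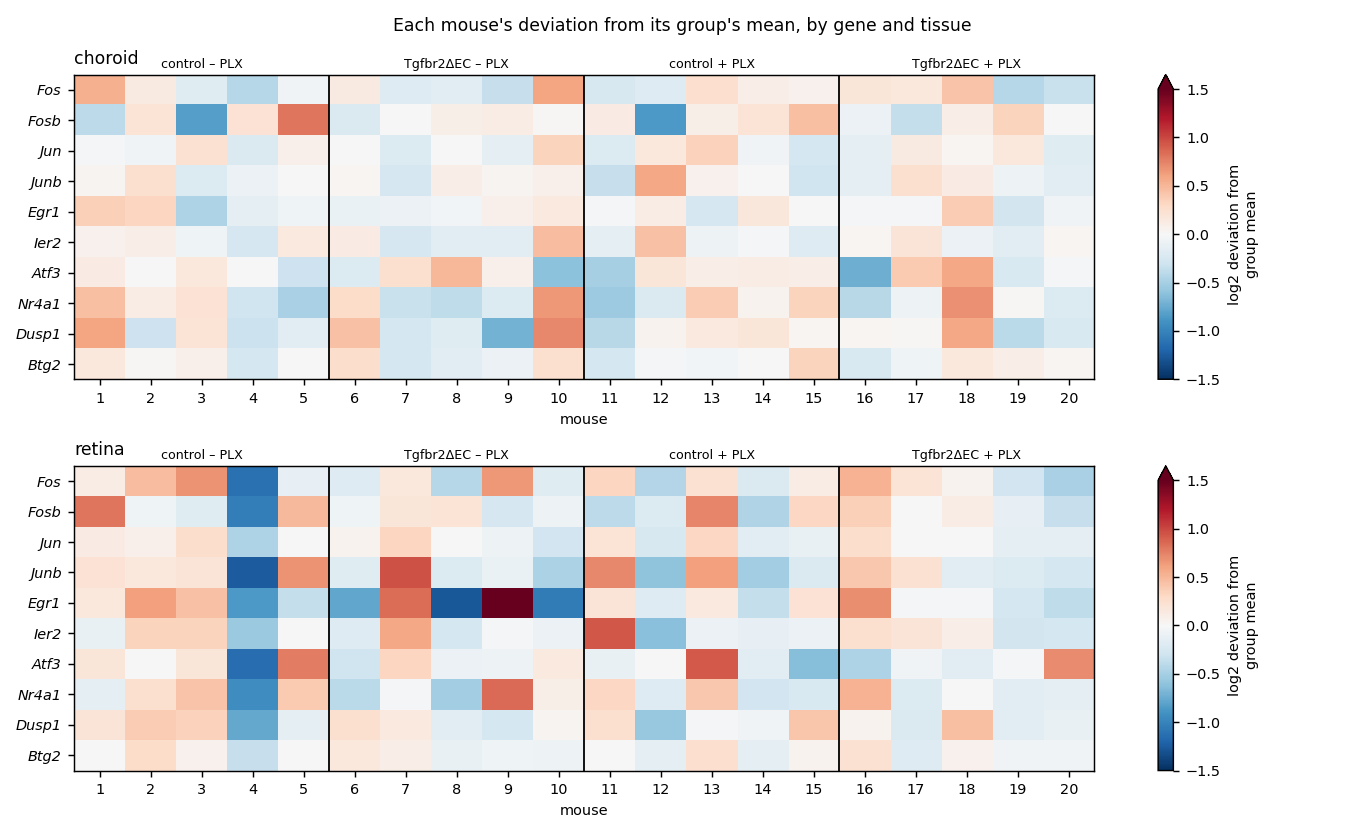
Deviation of each mouse from its group mean on the log2 scale, by gene (rows) and mouse (columns), in choroid (top) and retina (bottom); the scale ends at 1.5, above which Egr1 of mouse 9 lies. Mouse 4 is below its group mean for all 10 genes in retina, and columns share a colour more often in retina than in choroid.

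Whether the 10 genes rose and fell together from mouse to mouse was described by the correlation of each pair over 20 mice, after removal of group means. In choroid the 45 pairs had a median r of 0.26 (range -0.38 to 0.84), 34 were above 0 and 9 were at 0.5 or more. In retina the median r was 0.55 (range 0.08 to 0.89), all 45 were above 0 and 25 were at 0.5 or more. Pairs of one of these genes with any other tested gene had a median r of 0.00 in both tissues, and 3.51% in choroid and 6.41% in retina reached 0.5. All pairs of a tissue share the same 20 libraries and their scaling, so these values are a description and carry no test.

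Without mouse 4, the median r in retina was 0.36, 36 of 45 pairs were above 0 and 11 were at 0.5 or more. In choroid the median was 0.24 without the same mouse. With the sex score (Xist against Y-linked genes) removed, the medians were 0.48 in retina and 0.24 in choroid.

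In choroid the closest pairs were Fos with Dusp1 at 0.84, Nr4a1 with Btg2 at 0.79 and Nr4a1 with Dusp1 at 0.76, a set of transcription factors and inhibitors. Fosb ran against the others there, at -0.31 with the mean of the other 9, and Atf3 stood apart at 0.04. In retina the closest pair was Jun with Junb at 0.89, followed by Fos with Nr4a1 at 0.83. Fosb and Atf3 were at 0.55 and 0.42 with the mean of the other 9 in retina, but at 0.21 and -0.02 without mouse 4. Fos and its partner Jun, which form AP-1 dimers, correlated at 0.36 in choroid and 0.74 in retina.

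**Figure D4:**
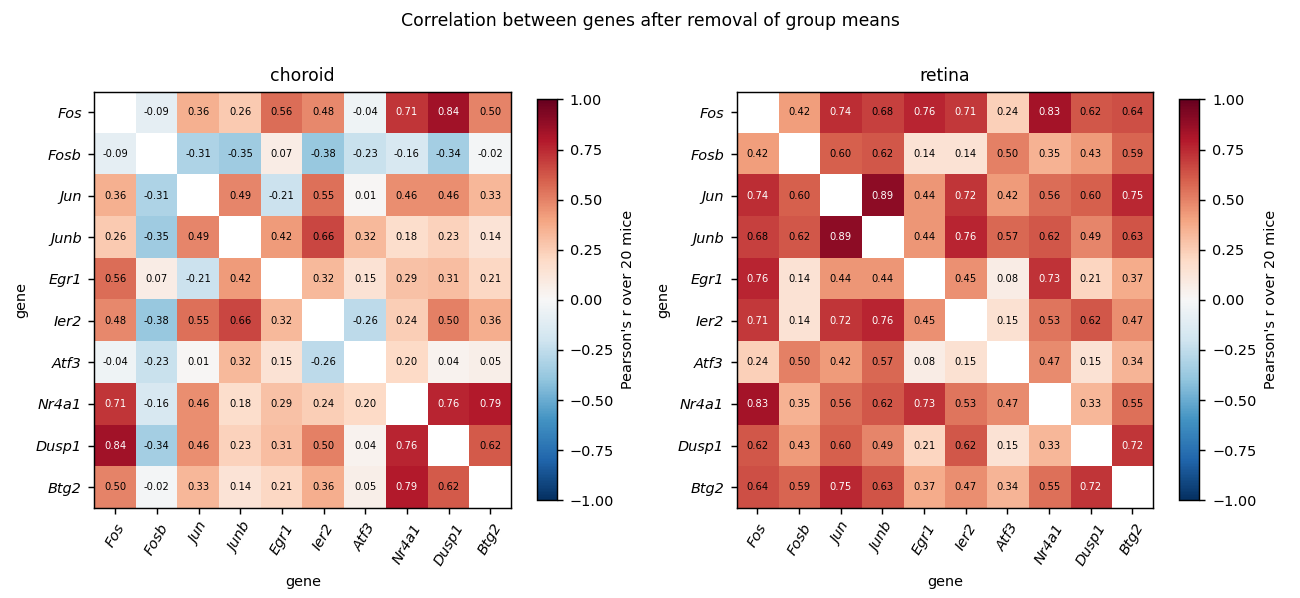
Pearson's r of each pair of the 10 genes over 20 mice after removal of group means, in choroid (left) and retina (right). Retina values range from 0.08 to 0.89 with all mice, and choroid values from -0.38 to 0.84, with Fosb negative against 8 of the other 9 genes in choroid.

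Dusp1 and Btg2, both inhibitors and correlated at 0.62 in choroid and 0.72 in retina, are shown here with the sequence before their start sites because theirs were the only promoters, of the 8 matched, that held a searched motif. Sequences are from RefSeq on GRCm38.p6, on the minus strand that both genes use, written 5′ to 3′, with the letters of the cAMP response element TGACGTCA in capitals. The stretch of Btg2 is chr1:134079268-134079367, with the motif 166 bases before the gene start, and that of Dusp1 is chr17:26508562-26508661, with the motif 143 bases before it. The start meant here is that of the RefSeq entry. The gene spans given above on GRCm39 are from another annotation and can begin elsewhere.
Btg2: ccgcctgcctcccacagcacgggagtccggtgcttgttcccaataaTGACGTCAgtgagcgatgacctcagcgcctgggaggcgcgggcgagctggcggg
Dusp1: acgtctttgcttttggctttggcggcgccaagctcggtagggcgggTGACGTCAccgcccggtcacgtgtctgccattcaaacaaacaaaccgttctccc
Windows from 250 bases before to 50 after the start were found for 8 of the 10 genes (Egr1 and Ier2 were not matched). TGACGTCA, which reads the same on both strands, was in 2 of 8 windows and in 1.79% of 32851 windows of all genes. The AP-1 site (TGACTCA or TGAGTCA, both strands) was in 0 of 8 and in 5.2% of all, and the CArG box of serum response factor (both strands) in 0 of 8 and 1.63% of all. A match shows only that the letters are in the window.

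The genes whose pattern over the 20 mice was most like the mean of the 10 (group means removed, genes of a mean of at least 50) were listed by r. In choroid they were Klf2 at 0.74, Atf4 at 0.73, Borcs5 at 0.73, Impdh2 at 0.73 and 4732496C06Rik at 0.72, out of 14424 candidates. In retina they were Apobec2 at 0.89, Sat1 at 0.84, Slc35b2 at 0.83, 2900057B20Rik at 0.82 and Rps2-ps10 at 0.81. Klf2 is itself an immediate early gene of the endothelium and other cells. No gene was among the 5 in both tissues, which says little for lists of 5 out of 14424 and 13815 candidates. The retina list was not recomputed without mouse 4.

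The mean of the 10 genes in retina also moved with 10 heat shock genes, with r = 0.65 and rho = 0.66 over the 20 mice, and r = 0.53 without mouse 4. In choroid the same relation was r = 0.39 and rho = 0.44. In retina the mean of the 10 was lower in libraries with a higher sex score, that is in females (r = -0.50, rho = -0.48; r = -0.38 without mouse 4), and in choroid this r was 0.00. It was also lower in retina libraries with a higher sum of normalized counts (r = -0.38, rho = -0.42; r = -0.22 without mouse 4 and -0.62 without the 2 mice farthest in that sum). The part of each of these measures in the variation of the 10 genes was not tested, beyond the removal of the sex score given above.

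Last, choroid and retina of the same mouse were compared. After removal of group means, r over 20 mice ran from -0.30 for Junb to 0.38 for Dusp1, with a median of 0.05. For 0 of 10 genes was the correlation called, with an adjusted p from 0.896 to 0.994 over all genes, against 0.414% of 21236 genes called. The median over all genes was -0.02.

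Dusp1 had r = 0.38 (permutation p = 0.098, 100000 draws within groups, two-sided) and rho = 0.39 (permutation p = 0.109). It was 0.42 without mice 4 and 12, the mice farthest from the median in retina, and 0.45 without PLX and 0.27 with PLX. Fos had r = 0.26 (permutation p = 0.351), which became 0.12 without mice 3 and 4. Junb, the most negative, had r = -0.30 (permutation p = 0.27) and -0.37 without mice 4 and 7. Egr1, whose retina values spread most, had r = 0.08 (permutation p = 0.681), and the high retinae of mice 7 and 9 came with choroid values of 1411 and 1583 in a group of 1402 to 1655. For the mean of the 10 genes r was 0.00 and rho was -0.14. The number of mice on the same side of their group mean in both tissues was highest, 13 of 20, for Fos, Dusp1 and Btg2, and lowest, 8 of 20, for Fosb.

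**Figure D5:**
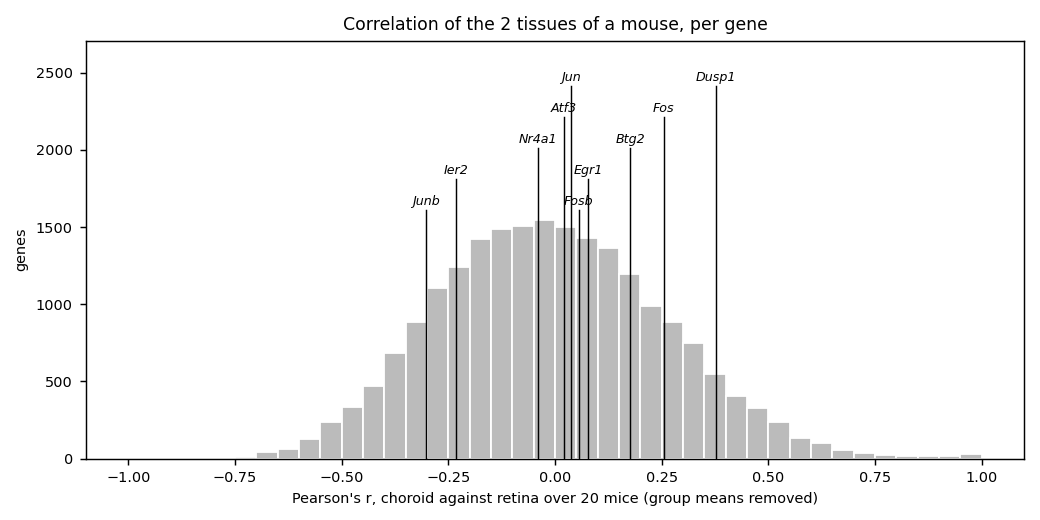
Number of genes (bars) by Pearson's r between choroid and retina of the same mouse over 20 mice, group means removed, with the 10 genes marked by lines. The 10 lie between -0.30 and 0.38, inside the bulk of the 21236 genes.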

How the data were processed

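Choroid and retina of 20 mice, 5 in each group, were sequenced as stranded poly-A libraries. Per the labels and the methods, the authors checked reads with FastQC 0.11.5, quantified them with Salmon 1.10.1 against GRCm39, and normalized with DESeq2 1.36.0. The deposited values are the resulting signal per gene, normalized estimated counts. At a tolerance of 0.1 reads, 61.3 to 77.8% of the values tried in choroid and 50.0 to 75.9% in retina were whole multiples of 1 read, too few to recover whole reads, so no count test was run. Library size was estimated from the lowest steps at 21721000 to 28175000 reads in choroid and 20848000 to 30422000 in retina. The table held 0 columns of no sample.

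Genes were kept from a mean normalized count of 1 upward and tested on log2(normalized count + 1) with limma 3.58.1 (R 4.3.3) using a mean-variance trend and Benjamini-Hochberg adjustment over all genes tested, with 4 groups in 1 fit per tissue and both tissues in 1 fit for tissue contrasts. Fold changes are on that log2 scale. Single values were compared by exact permutation tests, and tissue correlations by 100000 permutations within groups (scipy 1.17.1). Scripts were tested on simulated data. Mice were paired across tissues by the number in the library names, and Xist and Y-linked genes gave the same sex in both tissues for 20 of 20 mice. Nothing in the labels gives sex, so it was no group. Of the table's identifiers, 53700 matched the annotation and 607 did not.

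The 10 genes were taken in full. Of 50 other immediate early genes, those called in a comparison, the largest tissue differences (chosen after their values were seen) and the 3 widest in each tissue are named, and the 5 genes most like the mean of the 10 in each tissue. The genes, marker lists and tests were chosen with earlier results of these data known. Alternatives covered pseudocount, minimum mean, scaling, covariates, the mouse as a block and leaving out each mouse.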

Additional observations from a re-analysis of the deposited data

Results flagged for a closer look

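In groups of 5 mice, the value farthest from its neighbour was compared with the range of its group (gap divided by range, with 0.71 as the limit). Of 80 groups of the 10 genes, 11 passed, where chance alone flags about 4. In choroid, Atf3 of mouse 11 (control +PLX) was at 289 against 437 to 466 in the other 4 mice (0.8373), and its Dusp1 was at 871 against 1184 to 1311 (0.7111). Ier2 of mouse 12 (control +PLX) was at 766 against 492 to 555 in choroid (0.7671). Junb of mouse 7 (Tgfbr2ΔEC -PLX) was at 953 against 1156 to 1218 in choroid (0.7674). Over the genes with a mean of at least 50, choroid of mouse 12 was the lowest of its group for 31.3% and the highest for 30.3%.

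In retina the same mouse 7 was the high one, with Junb at 1014 against 377 to 489 (0.8232) and Ier2 at 490.0 against 272 to 320.1 (0.7801). Mouse 11 had Ier2 at 663 against 225 to 328 in retina (0.7657), and mouse 13 (control +PLX) had Atf3 at 350.0 against 119 to 186 in retina (0.7116). In Tgfbr2ΔEC +PLX retina, mouse 16 had Egr1 at 882 against 417 to 537 (0.7413) and Nr4a1 at 1191 against 720.2 to 830.5 (0.7657), while mouse 20 had Atf3 at 254 against 113 to 153 (0.716). Some of these retina libraries also stood apart over all genes with a mean of at least 50. Mouse 7 was the lowest of its group for 34% and the highest for 35.9%, mouse 11 for 37.7% and 40%, and mouse 16 for 28.2% and 24.5%. Mouse 13 was the lowest for 19% and the highest for 16.6%, and mouse 20 for 15.3% and 10.9%.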

How the results depend on the processing

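The tissue differences kept their direction under every alternative run, and 9 of the 10 kept their call. The number of the 10 genes called for PLX in choroid, 1 as reported, was 2 with a minimum mean of 10, 0 after adjustment for the neural retina score, and 0 to 2 with a mouse left out. Over all genes, genotype without PLX in choroid gave 0 genes with a minimum mean of 10, 303 with only the 10 libraries compared, and 1 to 411 with a mouse left out (411 without mouse 15), with none of the 10 genes called in either. Genotype with PLX in choroid gave 0 genes with a pseudocount of 5, a minimum mean of 10, the sex score or the neural retina score as a covariate, and only the 10 libraries compared, and 0 to 1 with a mouse left out. PLX in retina gave 154 genes with a minimum mean of 10 against 254, and genotype with PLX in retina 0 to 1 with a mouse left out (1 without mouse 12). The difference of the PLX effect between tissues gave 278 to 620 genes with a mouse left out (620 without mouse 15) against 332. Without removal of group means, 324 genes correlated between tissues against 88, and the range with a mouse left out was 70 to 87. The count of genes with a wider spread in retina ranged from 5 (without mouse 4) to 8, and the median r between pairs in retina from 0.36 (without mouse 4) to 0.63. The causes were not tested. With the mouse as a replicate block, 19855 genes were called between tissues against 19930 and 268 against 332 for the difference of the PLX effect, and the pairing changed no call among the 10 genes. Alternatives for pair correlations were chosen after seeing the data. Groups of 5 mice set the precision, and the p-values measure the spread between these mice.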

Other observations

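Among the 50 other immediate early genes, those with the widest spread between mice in choroid were Egr4 (SD 1.12 on the log2 scale, mean 1.76), Nr4a3 (SD 0.57, mean 543) and Npas4 (SD 0.57, mean 26.8). In retina they were Egr2 (SD 1.44, mean 9.29), Dusp2 (SD 1.02, mean 3.58) and Fosl1 (SD 1.02, mean 11.8). The highest retina values of Egr2 and Fosl1 were 75.7 and 81.0.

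Of 10 heat shock genes, 2 fell with PLX in choroid by limma, against 7.13% of all genes called. Mononuclear phagocyte markers fell in the same comparison, 15 of 16 with a median of -2.31, and their part in this was not tested. Hmox1, which degrades haem, differed by -1.20 on the log2 scale (Benjamini-Hochberg adjusted p = 9.38e-06), and Hspa5, a chaperone of the endoplasmic reticulum, by -0.36 (Benjamini-Hochberg adjusted p = 0.0368). None of the 10 was called in retina, where none had an unadjusted p under 0.05.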
